A study of Rattus norvegicus with 48 samples.

Results

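The soleus of HRT rats after 3 d in a hindlimb cast (HI) was compared, gene by gene, with the soleus of uncast HRT rats (CTRL). The comparison takes the 12 libraries whose labels read soleus, HRT and HI or CTRL, out of 48 libraries in the series, with 6 rats in each group. HRT rats come from a line bred over generations for a large gain in running capacity with treadmill training, and the counterpart line, LRT, was bred for a small gain. The series asks how short disuse changes the RNA of the slow soleus and the fast plantaris in both lines.

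All 12 rats were females of generation 19 and were 14 months old. They had been through treadmill training early in life, so the training history is common to CTRL and HI. In HI rats a hindlimb was wrapped in casting tape with the foot in plantar-flexion. Puromycin, which labels new protein, was injected before collection, and the study measured that label in CTRL as well as HI rats. CTRL rats were other animals that never wore a cast, were put under anaesthesia and were dissected alike on that day, and no muscle came from the uncast leg of a cast rat. The rats of a bred line are related, so the 6 rats of a group speak for that line. Each library holds the RNA of a piece of whole muscle, in which fewer cells of a type and less RNA per cell cannot be told apart.

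The soleus is a postural muscle of the calf made mainly of slow, oxidative fibres that fire for much of the day. When a cast removes that activity and load, transcripts that depend on contraction, stretch and calcium signalling change early, protein synthesis falls, and muscle mass is lost later. Muscle of this kind is also known for its dense blood supply, its connective tissue sheath and a circadian clock that responds to activity and feeding.

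The libraries held 26.9 to 33.5 M estimated counts in CTRL and 27.5 to 35 M in HI, with RNA integrity numbers of 8.0 to 8.4 and 7.8 to 8.2. The labelled tissue was checked against fibre genes, with levels in CPM, which are counts scaled to the size of each library. Medians in HRT CTRL were 479 CPM in soleus against 53.9 CPM in plantaris for Casq2, the calcium buffer of slow fibres, and 0.794 against 1382 CPM for Pvalb, the calcium buffer of fast fibres. Of 11 genes checked, which were 10 fibre genes and the tendon gene Tnmd, 9 did not overlap between the muscles, each in the direction of the label, while Pln and Tnmd overlapped. Certain libraries stood apart from the rest of their group. CTRL replicate 1 held the highest sum of fibroblast markers (2700 CPM, with replicate 2 next at 2342 CPM), and HI replicate 5 held the highest sum of red cell markers (15218 CPM, with the next library at 2193 CPM).

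Of 16960 genes tested, 2744 (16.2%) passed a Benjamini-Hochberg adjusted p of 0.05 in edgeR's quasi-likelihood test, of which 1348 were higher in HI (7.95%) and 1396 lower (8.23%). The DEGs, which also have an absolute log2 fold change over 1, numbered 497 (2.93%), with 248 higher (1.46%) and 249 lower (1.47%). All 6 HI values lay above all 6 CTRL values in 382 genes (2.25%) and below them in 391 (2.31%), and 90 rising and 120 falling DEGs were among these. Without HI replicate 1 the genes that passed numbered 1376 and the DEGs 340, and in a fit of the 12 libraries alone they numbered 605 and 226. Library totals in place of TMM scaling gave 1654 higher and 925 lower genes.

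Gene names limit what can be described. Only 1148 of the 31998 identifiers are paired with a symbol in the tables used here, and these tables list genes that responded in some group of the study. Among the paired genes 36.5% passed the test, against 16.2% of all genes, so counts within a gene list run high from the start. The symbols that stand in a table of LRT rats were not chosen on this comparison. For these 928 genes the background was 27.8%, with 10.9% higher and 16.9% lower, and list counts below are given both for all members and for members of that kind. Members known only from the table of HRT soleus are not independent evidence of their direction. The median log2 fold change over all genes tested was 0.01.

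Among named DEGs whose groups did not overlap, the largest rise was in Arrdc2, an arrestin-domain protein that takes part in the sorting of membrane receptors. Its levels were 1.21, 1.64 and 2.96 CPM (lowest, median and highest) in CTRL and 6.75, 13.6 and 27.3 CPM in HI, a log2 fold change of 3.06 ± 0.36 (SE, adjusted p = 2.44e-07). Dgat2, which makes the last step of triglyceride synthesis, went from 5.67, 7.95 and 10.5 CPM to 39.6, 47.7 and 88.3 CPM (2.78 ± 0.26, adjusted p = 1.63e-09). The lowest HI rat thus lay far above the highest CTRL rat for both genes. Chac1, which degrades glutathione and is induced in the integrated stress response, rose from a median of 1.20 CPM to 8.54 CPM (2.51 ± 0.40). Sh3rf2, a RING and SH3 protein that restrains stress kinase signalling, rose from 8.08 to 43.1 CPM (2.36 ± 0.41), and Pik3ip1, an inhibitor of PI3K, rose from 13.5 to 61.5 CPM (2.17 ± 0.30). Crhr2, a receptor for urocortins, rose by 2.16 ± 0.46 on the log2 scale, and Fah, the last enzyme of tyrosine breakdown, by 1.83 ± 0.31.

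Among the falls, Rrad came first. It encodes a small GTPase that restrains voltage-gated calcium channels. Its levels were 77.9, 111 and 162 CPM in CTRL and 1.67, 6.80 and 35.1 CPM in HI (-3.35 ± 0.68, adjusted p = 0.00081). HI replicate 6 held the highest HI value, and it was still below every CTRL rat. Otud1, a deubiquitinase, fell by 2.47 ± 0.55 and Rcan1, a feedback inhibitor of calcineurin that is itself induced by calcium signalling, by 2.46 ± 0.57, the latter from a median of 597 CPM to 59.9 CPM. Tppp3, a tubulin-binding protein, went from 145, 169 and 196 CPM to 23.9, 31.5 and 60.1 CPM (-2.27 ± 0.22, adjusted p = 1.63e-09). Crym, which binds thyroid hormone, fell by 1.98 ± 0.44, with an adjusted p = 0.00223 that became 0.0721 in the 12 libraries alone. Dnah5, a dynein heavy chain, fell by 1.97 ± 0.57, with an adjusted p = 0.0149 that became 0.0523 without HI replicate 1. The 20 genes were chosen for groups that do not overlap. In their plot, on the log axis, the spread among HI rats was wider than among CTRL rats for Rrad, Rcan1 and Dnah5.

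**Figure D1:**
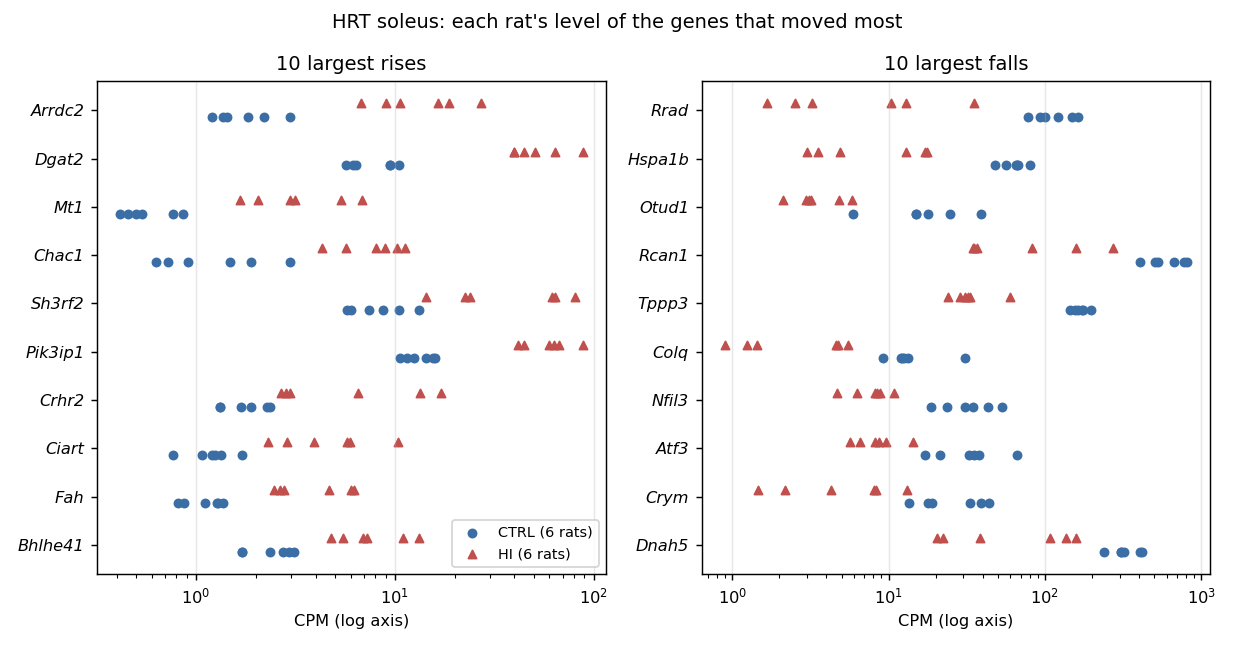
Level of each gene in each rat in CPM on a log axis, with CTRL rats as circles and HI rats as triangles, for the 10 largest rises (left) and 10 largest falls (right) among named DEGs whose groups do not overlap. For Rrad the 6 HI rats sit between 1.67 and 35.1 CPM and the 6 CTRL rats between 77.9 and 162 CPM.

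Among genes switched on by contraction and calcium more fell than rose. Of 25 activity-induced genes tested, 10 fell, 1 rose and 14 did not pass (median -0.56), against 36.5% of paired genes that passed. Of the 23 named from LRT rats 9 fell and 1 rose, against 27.8% of LRT-named genes that passed. Atf3, a stress-induced transcription factor, went from 17.1, 34 and 66.5 CPM to 5.64, 8.39 and 14.4 CPM (-2.03 ± 0.51, adjusted p = 0.00547). Dusp8, a phosphatase that turns off stress kinases, fell by 1.59 ± 0.29 and Jund, an AP-1 subunit, by 1.08 ± 0.25. The groups did not overlap for Atf3 and Dusp8 and overlapped for Jund. Fosb, another AP-1 subunit, was the member that rose, at 0.714, 1.02 and 1.43 CPM in CTRL and 0.642, 9.90 and 45.7 CPM in HI (3.31 ± 0.68, adjusted p = 0.000923). A single HI rat lay below every CTRL rat for Fosb while the other 5 lay above them all. Dusp1, an early-response phosphatase, was at a median of 62.6 CPM in CTRL and 42.0 CPM in HI and did not pass (-0.56 ± 0.26, adjusted p = 0.136). The fall count of this list went down to 5 without CTRL replicate 6 and up to 11 without CTRL replicate 3.

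The next group holds actin and serum response factor (SRF) genes. Myocardin-family cofactors, some of which sense the pool of free actin, drive genes of the sarcomere and the actin skeleton with SRF. Of 17 such genes 10 fell, 0 rose and 7 did not pass (median -1.05), against 36.5% of paired genes that passed. Of the 15 named from LRT rats 9 fell, against 16.9% of LRT-named genes. Myocd, which encodes myocardin, went from 5.17, 9.67 and 12.5 CPM to 1.81, 2.88 and 3.38 CPM (-1.70 ± 0.27, adjusted p = 4.78e-05). Abra, an actin-binding activator of SRF, fell from a median of 183 CPM to 63.5 CPM (-1.60 ± 0.37) and Tgfb1i1, a focal adhesion protein, from 2.73 to 1.72 CPM (-0.81 ± 0.16). Each of these kept its groups apart. Ablim1, an actin-binding LIM protein, fell by 1.66 ± 0.34, although HI replicate 3 at 414 CPM lay within the CTRL range of 346 to 693 CPM. The Z-disc genes Ldb3 (-0.69 ± 0.32) and Ankrd2 (-0.88 ± 0.76) did not pass, and Ankrd2 spanned 32.6 to 1417 CPM among the HI rats. In the 12 libraries alone 4 of the list fell.

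SRF binds the CArG box, a short AT-rich motif read here on both strands in the window of 250 bases before to 50 bases after the gene start. Of 10 list members matched by symbol to RefSeq promoters of GRCr8, 2 held such a box, against 1.64% of 33469 promoters. Of these, Actc1, the cardiac form of actin, which was chosen for display after its values were seen, fell from a median of 89.3 CPM to 32.9 CPM (-1.55 ± 0.39, adjusted p = 0.00606). Its promoter, chr3:121271778-121272077 on the minus strand, is shown 5′ to 3′ with the box in capitals, because it is the called member of the list that carries the motif. The deposited counts use another build, and the match rests on the symbol alone.
Actc1: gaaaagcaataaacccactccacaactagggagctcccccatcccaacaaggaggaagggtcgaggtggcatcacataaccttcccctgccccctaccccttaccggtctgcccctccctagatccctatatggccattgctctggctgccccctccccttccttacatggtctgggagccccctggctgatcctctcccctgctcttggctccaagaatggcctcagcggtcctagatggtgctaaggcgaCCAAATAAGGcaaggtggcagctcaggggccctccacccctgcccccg

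Chaperones moved in a single direction. Heat shock proteins fold and hold other proteins, and active slow muscle makes them in quantity. Of 13 tested, 10 fell and 0 rose (median -1.02), against 36.5% of paired genes that passed. Of the 11 named from LRT rats 9 fell, against 16.9% of LRT-named genes. Hspa1b, an inducible Hsp70, went from 48.2, 66.2 and 80.5 CPM to 2.99, 8.85 and 17.5 CPM (-2.56 ± 0.62, adjusted p = 0.00442), and the highest HI rat was below the lowest CTRL rat. It has a near-identical copy, and how reads were split between them is uncertain. Hspa2, another Hsp70, fell from a median of 38.2 CPM to 15 CPM (-1.25 ± 0.30). Hsph1, the Hsp110 that recharges Hsp70, fell by 1.03 ± 0.24 and Dnajb5, an Hsp40, by 1.02 ± 0.22. Of these Hspa2 and Dnajb5 showed no overlap, and Hsph1 overlapped. The small heat shock genes Cryab (-0.79 ± 0.38) and Hspb1 (-0.91 ± 0.39) did not pass, and their groups overlapped. Without HI replicate 1 the falls in the list numbered 7.

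Heat shock factors bind inverted repeats of GAA, here searched as GAANNTTC, which reads the same on both strands. It was found in 3 of 9 matched chaperone promoters, those of Hsph1, Hspb1 and Hspb6, against 8.59% of all promoters. Hspa1b was not matched. The Hsph1 promoter, chr12:10427118-10427417 on the plus strand of GRCr8, is shown since it belongs to a called member, with the repeat in capitals.
Hsph1: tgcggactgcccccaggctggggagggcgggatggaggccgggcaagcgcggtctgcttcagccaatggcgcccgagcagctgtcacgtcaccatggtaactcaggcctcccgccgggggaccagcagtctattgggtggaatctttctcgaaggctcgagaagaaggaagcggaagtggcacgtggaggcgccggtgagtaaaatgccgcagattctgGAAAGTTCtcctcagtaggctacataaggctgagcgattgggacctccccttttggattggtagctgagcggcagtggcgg

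The clock genes separated the groups. Arntl and Npas2 are the activators that switch on the repressor genes Per2, Per3, Ciart and Bhlhe41 through E-boxes, while Dbp and Tef activate and Nfil3 represses a shared site, the D-box. All 10 clock genes tested passed, 7 higher and 3 lower (median 1.22), against 36.5% of paired genes. Of the 6 named from LRT rats 4 rose and 2 fell, against 27.8% of such genes that passed, and the other 4, Arntl, Per2, Per3 and Dbp, carry a symbol only from tables of HRT rats, which for all but Per2 include HRT soleus. In 9 of the 10 the groups did not overlap. The same split of 7 and 3 was found when any of the 12 libraries was left out and when the 12 libraries were fitted alone. Npas2 went from 9.91, 12 and 19.1 CPM to 2.30, 3.93 and 6.40 CPM (-1.67 ± 0.28, adjusted p = 0.000123). Arntl went from 28.4, 39.8 and 49.1 CPM to 8.47, 16.1 and 20.2 CPM (-1.42 ± 0.35, adjusted p = 0.00525). Both activators were thus lower in every cast rat.

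Each of the repressors was higher. Ciart went from 0.769, 1.23 and 1.71 CPM to 2.30, 4.84 and 10.4 CPM (2.08 ± 0.47, adjusted p = 0.00267), Bhlhe41 from a median of 2.55 CPM to 7.12 CPM (1.78 ± 0.35) and Per3 from 35.9 to 79.8 CPM (1.14 ± 0.22). On the D-box side Tef rose from 58.9 to 135 CPM (1.30 ± 0.18, adjusted p = 3.1e-06), while Nfil3 fell from 32.7 to 8.32 CPM (-2.15 ± 0.44, adjusted p = 0.000969). The study's methods put the collections on the same day, but the hour of each collection is not given in the sources used here. An effect of the cast on the clock and a difference in hour between the groups cannot be told apart.

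The E-box CACGTG, the same on both strands, was found in 3 of 9 matched clock promoters, those of Ciart, Bhlhe41 and Tef, against 6.42% of promoters. Ciart held 3 copies, a number that 0.0568% of promoters reach. The D-box TTATGTAA was found in 1 of the 9, that of Per2, against 0.893%. The Ciart promoter, chr2:186112197-186112496 on the minus strand of GRCr8, is shown with the E-boxes in capitals because this gene rose most in the list.
Ciart: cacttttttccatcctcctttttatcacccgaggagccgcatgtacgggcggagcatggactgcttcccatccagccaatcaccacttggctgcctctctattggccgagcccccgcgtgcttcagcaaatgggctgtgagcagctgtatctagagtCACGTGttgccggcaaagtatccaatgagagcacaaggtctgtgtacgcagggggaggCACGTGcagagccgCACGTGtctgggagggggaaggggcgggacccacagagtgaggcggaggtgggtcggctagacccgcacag

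Of the metallothioneins, which bind zinc and copper, Mt1 and Mt2A rose and Mt3 fell. Mt2A rose by 1.77 on the log2 scale (adjusted p = 0.0071). Mt1 went from 0.418, 0.519 and 0.867 CPM to 1.67, 3.07 and 6.84 CPM (2.60 ± 0.39, adjusted p = 2.7e-05), so that every cast rat lay above every CTRL rat. Mt3, best known from brain, was at 0.684, 1.30 and 10.3 CPM in CTRL and 0.219, 0.483 and 0.879 CPM in HI (-2.09 ± 0.44, adjusted p = 0.00125), with overlap. The CTRL value of 10.3 CPM belongs to replicate 1, and without it the fall was 1.42 on the log2 scale with an adjusted p = 0.00567. These are low levels, and metallothioneins are near-identical enough that the split of reads is uncertain. The promoters of Mt1, Mt2A and Mt3 hold the metal response element, searched as TGCACNC or TGCGCNC on both strands. Mt1 had 6 matches, a number that 0.0388% of promoters reach, Mt2A had 4, which 0.439% reach, and Mt3 had 3, which 1.68% reach. At least 1 match was held by 24.2% of promoters. The Mt1 window is chr19:10832926-10833225 and that of Mt3 is chr19:10856031-10856330, both on the minus strand of GRCr8. They are shown with the elements in capitals because these genes lie close together, carry the same element and moved in opposite directions.
Mt1: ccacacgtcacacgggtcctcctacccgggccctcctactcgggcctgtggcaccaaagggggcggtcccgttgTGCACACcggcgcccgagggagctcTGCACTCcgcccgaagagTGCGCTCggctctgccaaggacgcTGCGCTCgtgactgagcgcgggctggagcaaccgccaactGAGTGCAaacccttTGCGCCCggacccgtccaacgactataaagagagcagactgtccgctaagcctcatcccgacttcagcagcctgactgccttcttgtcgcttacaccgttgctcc
Mt3: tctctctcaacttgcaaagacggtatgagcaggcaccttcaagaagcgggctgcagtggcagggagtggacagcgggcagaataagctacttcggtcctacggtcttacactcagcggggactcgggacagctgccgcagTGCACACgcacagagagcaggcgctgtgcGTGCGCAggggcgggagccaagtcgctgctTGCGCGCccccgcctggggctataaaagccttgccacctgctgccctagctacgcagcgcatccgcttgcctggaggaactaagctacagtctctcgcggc

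Among 21 metal and redox genes 10 rose and 2 fell (median 1.10), against 36.5% of paired genes that passed. Of the 17 named from LRT rats 7 rose and 1 fell, against 27.8% of LRT-named genes that passed. The flavin monooxygenases, which oxidize drugs and sulfur compounds, were among the rises. Fmo2 went from 6.81, 9.39 and 12.9 CPM to 26.5, 29.5 and 50.7 CPM (1.77 ± 0.18, adjusted p = 5.74e-09), and Fmo1 went from 5.24, 6.65 and 8.95 CPM to 12.9, 14.3 and 19.1 CPM (1.10 ± 0.13, adjusted p = 1.82e-07). Every cast rat was above every CTRL rat for both. Glrx, a glutaredoxin that frees proteins from bound glutathione, rose from a median of 0.958 CPM to 2.24 CPM (1.15 ± 0.21). Gpx1, the main glutathione peroxidase of the cytosol, fell from 444, 506 and 614 CPM to 54.4, 222 and 325 CPM (-1.20 ± 0.33, adjusted p = 0.0121). It did not pass in soleus libraries alone, and neither Gpx1 nor Mt3 passed in the 12 libraries alone. Cat, catalase, had medians of 206 and 176 CPM and did not pass (-0.29 ± 0.19, adjusted p = 0.311).

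The extracellular matrix list held falls and no rise. Of 34 matrix genes 19 fell, 0 rose and 15 did not pass (median -1.10), and of the 23 named from LRT rats 10 fell, against 16.9% of such genes. Collagens fell in 6 of 9, elastic fibre and cross-linking genes in 5 of 8, matricellular proteins in 7 of 13 and proteases in 1 of 4. The collagens that fell numbered 3 without CTRL replicate 2 and 4 without HI replicate 1, 2, 3 or 5 or CTRL replicate 1 or 6. The matricellular falls numbered 4 without HI replicate 1 and 3 in the 12 libraries alone. The protease falls numbered 2 without HI replicate 4 or CTRL replicate 4 or 5. Col5a3, a chain of the collagen that starts fibrils, went from 22, 34.2 and 82.6 CPM to 7.26, 11.7 and 16.9 CPM (-1.73 ± 0.27, adjusted p = 3.29e-05). Eln, elastin, went from 12.8, 17.3 and 63.1 CPM to 5.36, 6.51 and 9.35 CPM (-1.74 ± 0.27, adjusted p = 4.37e-05). Neither gene overlapped between groups, although CTRL replicate 1 held the top value of both. Has2, which makes hyaluronan, fell from a median of 4.84 CPM to 2.05 CPM (-1.30 ± 0.27) and Adamts14, which trims procollagen, from 3.44 to 1.46 CPM (-1.27 ± 0.24). Col3a1, a main fibrillar collagen, was at 162, 414 and 1464 CPM in CTRL and 236, 368 and 567 CPM in HI and did not pass (-0.76 ± 0.42, adjusted p = 0.206).

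The summed level of 6 fibroblast markers moved with the matrix genes, at 520, 1010 and 2700 CPM in CTRL and 442, 669 and 952 CPM in HI. Of these markers 4 fell, and Col1a1, Col3a1, Lum and Fbn1 belong to both lists. None of them was at 0. Their part in the fall of the matrix was not tested. Without CTRL replicate 1 the falls numbered 17 of 34, without CTRL replicate 2 or HI replicate 1 they numbered 13, and in the 12 libraries alone 7. Without CTRL replicate 1, Eln fell by 1.33 on the log2 scale with an adjusted p = 0.00012, and Col5a3 by 1.45 with an adjusted p = 0.00011.

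**Figure D2:**
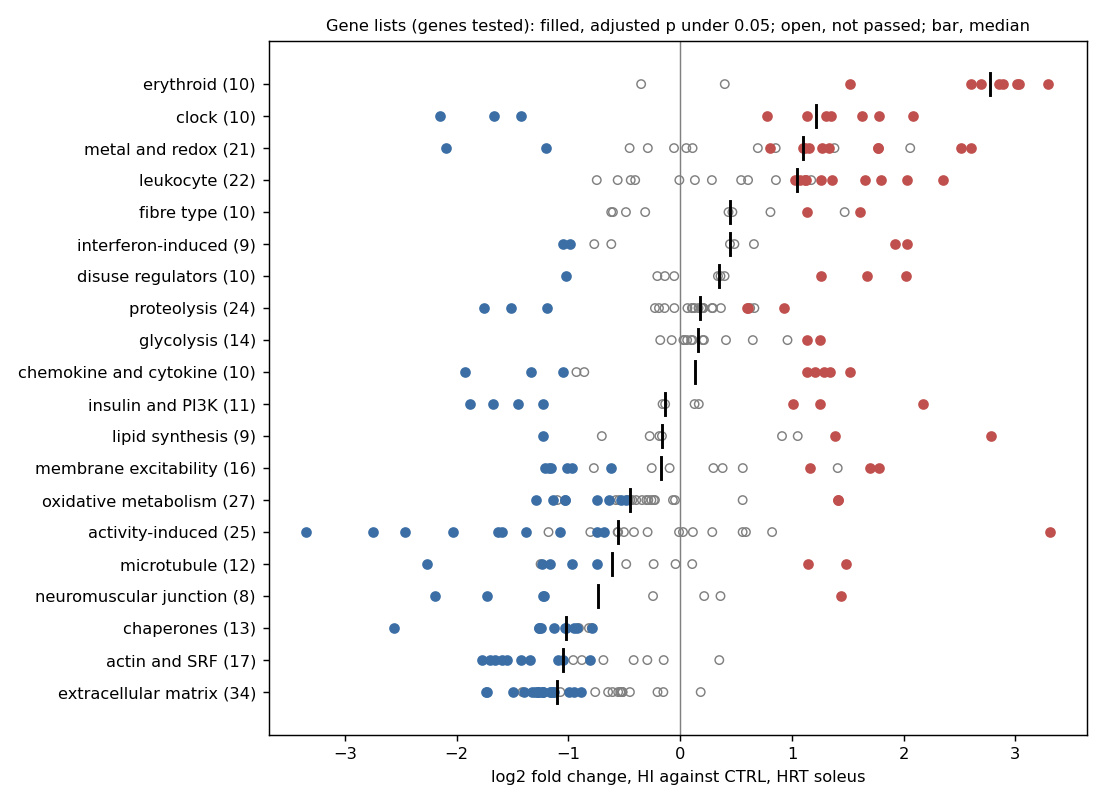
Log2 fold change of HI against CTRL for each gene of the 20 lists, with the number tested in brackets, filled where the adjusted p was under 0.05 (red higher, blue lower), open where it was not, and a bar at the list median. The chaperone, actin and SRF and matrix lists hold filled points to the left of 0 only, while the clock list holds 7 to the right and 3 to the left and no open point.

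Transcripts of red cells, leukocytes and their signals were examined next. Of 10 erythroid genes 8 rose (median 2.77), against 36.5% of paired genes that passed. Only 2 members were named from LRT rats, and 0 of these passed. Alas2, the first enzyme of haem synthesis in red cell precursors, was at 3.34, 5.0 and 10.3 CPM in CTRL and 5.17, 20.6 and 187 CPM in HI (2.86 ± 0.63, adjusted p = 0.00178). The haemoglobin gene Hba-a1 was at 59.7, 108 and 213 CPM in CTRL and 90.8, 447 and 4117 CPM in HI (3.01 ± 0.69, adjusted p = 0.00291). HI replicate 5 held both top values, with the next HI rats at 27.8 and 660 CPM, and the groups overlapped. Without replicate 5 the rises were 1.64 for Alas2 (adjusted p = 0.0113) and 1.73 for Hba-a1 (adjusted p = 0.0189), and 5 of the 10 list members passed. In the 12 libraries alone 0 of the 10 passed, with adjusted p = 0.202 for Alas2 and 0.245 for Hba-a1. The globin genes are near-identical copies among which reads cannot be placed with certainty. Bpgm, the red cell enzyme that sets oxygen release, did not pass (0.40 ± 0.21, adjusted p = 0.197). The plantaris of HRT HI replicate 5 was also the highest of its group for the red cell sum, at 4607 CPM with the next library at 683 CPM.

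Of 22 leukocyte genes 10 rose and 0 fell (median 1.05), against 36.5% of paired genes that passed. Of the 13 named from LRT rats 4 rose. Among LRT-named genes 27.8% passed and 10.9% rose. Clec9a, a receptor of dendritic cells, went from 1.6, 2.47 and 2.69 CPM to 3.32, 5.49 and 6.06 CPM (1.11 ± 0.17, adjusted p = 3.48e-05). Il4i1, an amino acid oxidase of antigen-presenting cells, rose from a median of 0.980 CPM to 2.35 CPM (1.07 ± 0.19), and the groups of both genes stayed apart. Rgs1, a brake on chemokine receptors, rose by 1.80 ± 0.34 and Lilrb3, an inhibitory receptor of myeloid cells, by 2.03 ± 0.45, with overlap in both. Itga4, an integrin of leukocytes, had medians of 7.61 and 7.85 CPM (-0.01 ± 0.39). The summed markers were higher for neutrophils and monocytes (4.61, 8.09 and 11.9 CPM in CTRL, 10.5, 19.7 and 31.3 CPM in HI), for dendritic cells with MHC class II (10.2, 13.3 and 15.9 CPM, then 22, 25.1 and 30.3 CPM) and for lymphocytes (3.97, 5.50 and 7.32 CPM, then 8.96, 12.2 and 15.1 CPM). They passed in 4 of 5, 2 of 3 and 2 of 4 genes. The sums of dendritic cells and lymphocytes did not overlap between groups. These markers are themselves members of the leukocyte list. Of the list's surface receptors 4 were named from LRT rats and of its MHC class II genes 1, and 0 of these passed. The receptors and MHC class II gene that rose thus carry symbols only from tables of HRT rats. The sums that hold them may be higher in part by that choice. How far blood in the muscle carries these transcripts was not tested. Without HI replicate 5 the leukocyte genes that rose numbered 10.

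Chemokine and cytokine genes moved both ways, 5 higher and 3 lower of 10 (median 0.14), against 36.5% of paired genes that passed. Of the 5 named from LRT rats 3 were higher and 1 lower, against 27.8% of LRT-named genes that passed. Cxcl12, the chemokine that keeps stem and immune cells in their niche, went from 59.7, 74.2 and 90.6 CPM to 24.1, 28.5 and 37.7 CPM (-1.33 ± 0.14, adjusted p = 8.21e-09). The highest HI rat was well below the lowest CTRL rat. Il6r, the interleukin-6 receptor, rose from a median of 12.4 CPM to 29.7 CPM (1.34 ± 0.23), Il15, a cytokine made by muscle, from 2.60 to 5.24 CPM (1.29 ± 0.30), and Il18bp, which traps interleukin-18, from 5.2 to 11.2 CPM (1.13 ± 0.22). None of these overlapped. Ccl2, which draws monocytes, rose by 1.52 ± 0.39 with overlap. Sigirr, an inhibitor of interleukin-1 signalling, fell by 1.05 ± 0.25. Tnfrsf12a, the receptor of TWEAK, fell by 1.92 ± 0.65, with an adjusted p = 0.0367 that was 0.102 without HI replicate 1 and was over 0.05 when HI replicate 1, 2, 4 or 6 or CTRL replicate 3, 4, 5 or 6 was left out. Osm, oncostatin M, did not pass (-0.86 ± 0.53).

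Interferon-induced genes moved both ways, with 2 higher and 2 lower of 9 (median 0.44) and 1 lower of the 4 named from LRT rats. These shares are near the 36.5% of paired genes and the 27.8% of LRT-named genes that passed. Rsad2, an antiviral enzyme, was at 2.26, 3.12 and 4.18 CPM in CTRL and 3.38, 6.95 and 51.2 CPM in HI (1.92 ± 0.47), and Ifit1bl, of the IFIT family, rose by 2.03 ± 0.47. HI replicate 5, the library with the most red cell RNA, was the highest for both. Without it the rises were 1.07 (adjusted p = 0.028) and 1.26 (adjusted p = 0.0168), and in the 12 libraries alone the adjusted p was 0.3 and 0.195. Usp18, which removes ISG15 and damps interferon signalling, went from a median of 5.55 CPM to 2.79 CPM (-1.05 ± 0.21) and Bst2, which tethers virus at the membrane, from 4.01 to 2.54 CPM (-0.98 ± 0.24). Both were lower in all 6 cast rats. In soleus libraries alone, as in the 12 libraries alone, 1 gene of the list fell and 0 rose.

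**Figure D3:**
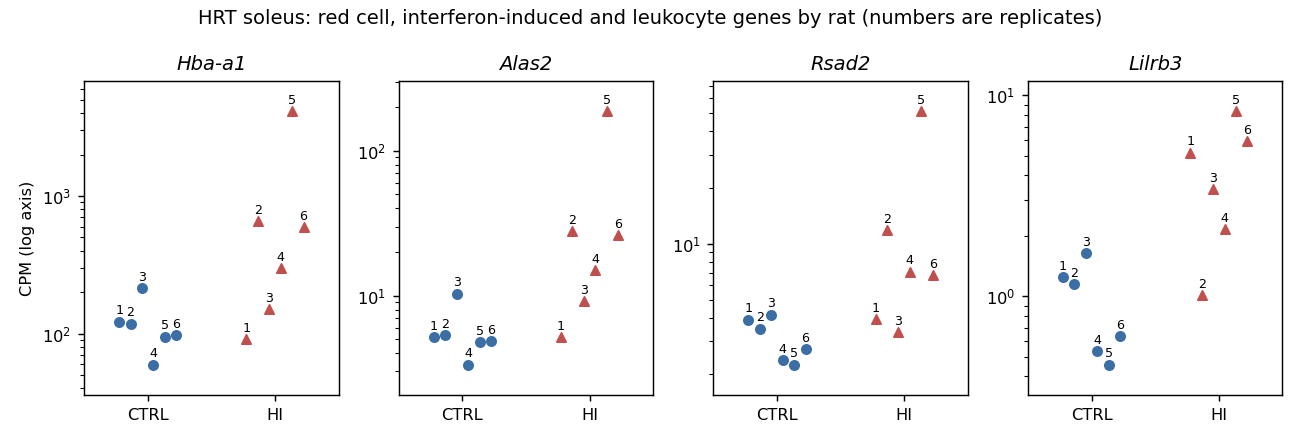
CPM on a log axis in each CTRL rat (circles) and HI rat (triangles), labelled with the replicate number, for Hba-a1, Alas2, Rsad2 and Lilrb3. HI replicate 5 is the highest library for each of the 4 genes, at 4117 CPM for Hba-a1 against 660 CPM in the next.

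Regulators of disuse and protein breakdown passed at about the background share or below it. Of 10 disuse genes 3 rose and 1 fell (median 0.35), against 36.5% of paired genes that passed, with 2 higher of the 8 named from LRT rats, against 27.8%. Hdac4, a deacetylase that links lost nerve activity to muscle genes, was at 13.9, 15.6 and 30.8 CPM in CTRL and 27, 63.6 and 124 CPM in HI (2.02 ± 0.45, adjusted p = 0.00202). CTRL replicate 1 at 30.8 CPM is the value that overlaps. Gadd45a, a stress protein of wasting muscle, rose from 8.60, 10.9 and 12.7 CPM to 18.6, 30.6 and 46.2 CPM (1.67 ± 0.47) with no overlap, and Myod1, a myogenic factor, rose by 1.26 ± 0.33 with overlap. Myf6, a further myogenic factor, fell by 1.02 ± 0.34, with an adjusted p = 0.037 that was 0.0906 without HI replicate 1 and over 0.05 without HI replicate 2, 4 or 6 or CTRL replicate 3, 4, 5 or 6. Myog, myogenin, had medians of 56.7 and 53 CPM (-0.14 ± 0.43).

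Of 24 proteolysis genes 3 rose and 3 fell (median 0.18), and 3 rose and 2 fell of the 23 named from LRT rats, against the same 36.5% and 27.8%. Trim63, the ubiquitin ligase MuRF1, was at 105, 143.25 and 162 CPM in CTRL and 131, 146 and 250 CPM in HI (0.21 ± 0.36, adjusted p = 0.745). Fbxo32, the ligase atrogin-1, was at 180, 247 and 347 CPM and 207, 336 and 445 CPM (0.36 ± 0.33, adjusted p = 0.484). The groups overlapped for both. The 8 proteasome and ubiquitin genes had a median of 0.08 and did not pass in edgeR. Asb5, a substrate adaptor of ubiquitin ligases, went from 167, 264 and 325 CPM to 62.9, 74.8 and 158 CPM (-1.51 ± 0.29, adjusted p = 0.000551). Fam134b, a receptor for autophagy of the endoplasmic reticulum, fell by 1.75 ± 0.44 and Fbxl2, an F-box protein, by 1.19 ± 0.32. Falls in the list numbered 2 in soleus libraries alone and 1 in the 12 libraries alone, where Fam134b did not pass. Tp53inp1, which promotes autophagy, rose from a median of 11.3 CPM to 21.8 CPM (0.93 ± 0.22). Map1lc3b, a coat protein of autophagosomes, rose by 0.60 ± 0.19 and Fbxo31, an F-box protein, by 0.61 ± 0.18, and without HI replicate 1 their adjusted p was 0.0896 and 0.083, which left 1 rise in the list. Map1lc3b also missed 0.05 without HI replicate 4.

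Insulin signalling genes changed at several levels. Of 11 genes 3 rose and 4 fell (median -0.14), against 36.5% of paired genes that passed. Of the 10 named from LRT rats 2 were higher and 4 lower, against 27.8% of LRT-named genes that passed. The counts of 3 and 4 held when each library was left out. Irs1, the adaptor that couples insulin and IGF-1 receptors to PI3K, went from 58.7, 78.4 and 117 CPM to 18.4, 21.2 and 37.6 CPM (-1.67 ± 0.28, adjusted p = 8.64e-05). Irs2, its relative, went from 29.7, 51.5 and 112 CPM to 9.20, 15.8 and 31.6 CPM (-1.88 ± 0.40, adjusted p = 0.00142). Irs1 separated the groups and Irs2 did not quite. Pik3r1, the regulatory subunit of PI3K, rose from a median of 46.6 CPM to 94.6 CPM (1.25 ± 0.21) and Eif4ebp1, which blocks cap-dependent translation, from 14.4 to 29.8 CPM (1.01 ± 0.22), each with all cast rats above all CTRL rats. Inpp5j, an inositol phosphatase, fell by 1.46 ± 0.40, but it did not pass in soleus libraries alone or in the 12 libraries alone. In each of these fits 3 genes of the list fell. Slc2a4, the glucose transporter GLUT4, had medians of 391 and 396 CPM (-0.14 ± 0.24).

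Lipid synthesis genes gave 2 rises and 1 fall of 9 (median -0.16), with 1 and 1 of the 8 named from LRT rats. Neither share exceeds the 36.5% of paired genes or the 27.8% of LRT-named genes that passed. Beside Dgat2, Mogat2, which makes diacylglycerol, rose from 1.22 to 3.83 CPM at the median (1.39 ± 0.29). Srebf1, the transcription factor behind fatty acid synthesis, went from 64.9, 71.9 and 182 CPM to 26.3, 34.6 and 40.9 CPM (-1.23 ± 0.35, adjusted p = 0.0126). The 182 CPM belongs to CTRL replicate 1, and without it Srebf1 fell by 0.99 with an adjusted p = 0.0354. Gpat3, which starts triglyceride assembly from glycerol phosphate, had medians of 21.7 and 14.4 CPM and did not pass (-0.70 ± 0.34, adjusted p = 0.149).

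Of 10 fibre-type genes tested 2 rose and 0 fell (median 0.45), with 1 higher of the 8 named from LRT rats, a share below the 36.5% of paired genes and the 27.8% of LRT-named genes that passed. Pln, phospholamban, the brake on the calcium pump of slow fibres, went from 11.3, 16.9 and 20.8 CPM to 25.9, 38.5 and 51.1 CPM (1.14 ± 0.23, adjusted p = 0.000757) with no overlap. Prkag3, an AMP kinase subunit of fast fibres, rose by 1.61 ± 0.43, and its adjusted p of 0.00892 became 0.0766 without HI replicate 1. The list had 4 rises without HI replicate 6. Car3, carbonic anhydrase of slow fibres, had medians of 17863 and 10691 CPM (-0.60 ± 0.29, adjusted p = 0.141), and Fabp3, a fatty acid carrier, had medians of 1220 and 697 CPM (-0.62 ± 0.38). The summed slow fibre markers were 12328, 20608 and 23591 CPM in CTRL and 4718, 12388 and 19472 CPM in HI, with overlap, and 1 of these 5 markers passed, which was Pln, higher. The summed fast fibre markers had medians of 1031 and 1202 CPM.

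Of 27 oxidative genes 8 fell and 2 rose (median -0.45), with 7 lower and 1 higher of the 25 named from LRT rats. These shares are near the 36.5% of paired genes and the 27.8% of LRT-named genes that passed. Esrrg, a nuclear receptor that drives mitochondrial genes, went from 79.1, 95.5 and 118 CPM to 30.5, 42.5 and 67.2 CPM (-1.03 ± 0.21, adjusted p = 0.000971), with no overlap. Acss1, which activates acetate in mitochondria, fell from a median of 205 CPM to 74.4 CPM (-1.29 ± 0.33), also with no overlap. Oxct1, which lets muscle burn ketone bodies, fell by 1.04 ± 0.31, with an adjusted p = 0.0189 that was 0.0722 without HI replicate 1 and also over 0.05 without HI replicate 4. Atp5g1, a subunit of ATP synthase, fell by 0.64 ± 0.20, with an adjusted p = 0.0243 that was 0.0999 without HI replicate 1 and over 0.05 without HI replicate 2 or 4 or CTRL replicate 5 or 6. Cycs, cytochrome c, did not pass (-0.39 ± 0.20, adjusted p = 0.18). Ehhadh, of peroxisomal fat oxidation, rose from 6.83 to 16.9 CPM at the median (1.41 ± 0.26, adjusted p = 0.000271) with the groups apart. The number of oxidative genes that fell ran from 2 without HI replicate 1 to 13 without HI replicate 6 or CTRL replicate 1, and was 1 in the 12 libraries alone.

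Of 14 glycolysis genes 2 rose and 0 fell (median 0.16), with 1 higher of the 12 named from LRT rats. Both shares lie below the 36.5% of paired genes and the 27.8% of LRT-named genes that passed. Pfkfb3, which makes the main activator of phosphofructokinase, rose from a median of 16.8 CPM to 48.3 CPM (1.25 ± 0.31, adjusted p = 0.00473). Aldoc, an aldolase, rose from 2.28 to 4.70 CPM (1.13 ± 0.26). The groups overlapped in both. Eno3, the muscle enolase, had medians of 987 and 1025 CPM and did not pass (0.03 ± 0.22).

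Of 16 pumps and channels 3 rose, 6 fell and 7 did not pass (median -0.18), with 2 higher and 1 lower of the 9 named from LRT rats, against 27.8% of such genes. Kcnj2, the inward rectifier that sets the resting potential, went from 37.2, 49.7 and 64.1 CPM to 20.3, 24.6 and 28.5 CPM (-1.02 ± 0.16, adjusted p = 3.27e-05). Cacna1g, a T-type calcium channel, fell by 1.21 ± 0.22 and Slc4a3, an anion exchanger, by 1.17 ± 0.22. These 3 genes were lower in every cast rat than in every CTRL rat. Ano1, a chloride channel gated by calcium, rose from a median of 14.6 CPM to 46.4 CPM (1.70 ± 0.36), Cacnb2, a calcium channel subunit, from 3.08 to 6.02 CPM (1.17 ± 0.21), and Kcnc4, a potassium channel, from 4.33 to 12.1 CPM (1.78 ± 0.47). These 3 overlapped, and the adjusted p of Kcnc4 was 0.0637 without HI replicate 1.

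At the neuromuscular junction 4 of 8 genes fell and 1 rose (median -0.73), against 36.5% of paired genes that passed. Of the 7 named from LRT rats 4 fell and 1 rose, against 27.8% of LRT-named genes that passed. Colq, the collagen tail that anchors acetylcholinesterase in the synapse, went from 9.19, 12.3 and 30.8 CPM to 0.896, 3.02 and 5.54 CPM (-2.20 ± 0.41, adjusted p = 0.000374). Ache, the esterase itself, had medians of 9.43 and 13 CPM and did not pass (0.21 ± 0.37, adjusted p = 0.744). Grm4, a glutamate receptor, fell from 8.69 to 2.61 CPM at the median (-1.73 ± 0.46) and Ret, the receptor for GDNF-family ligands, from 4.92 to 2.5 CPM (-1.23 ± 0.23). Gap43, a protein of growing axons, fell by 1.22 ± 0.35, with an adjusted p = 0.0152 that was 0.0561 without HI replicate 1. The groups of these falling genes did not overlap. Gabrr1, a GABA receptor subunit, rose from 0.298 to 0.991 CPM at the median (1.44 ± 0.46, adjusted p = 0.0278), and its adjusted p was over 0.05, at up to 0.0663, without HI replicate 2 or 4 or CTRL replicate 4, 5 or 6. Of 12 microtubule genes 5 fell and 2 rose (median -0.61), with 5 lower of the 9 named from LRT rats, against the same 36.5% and 27.8%. Beside Tppp3, its relative Tppp fell from a median of 10.05 CPM to 4.11 CPM (-1.24 ± 0.18, adjusted p = 1.47e-05), Tuba4a, an alpha-tubulin, fell by 0.96 ± 0.21, and Tubg2, a gamma-tubulin of nucleation sites, rose by 1.15 ± 0.28. Without HI replicate 2 the microtubule genes that fell numbered 3. The rises numbered 1 without HI replicate 1, 2 or 4 or CTRL replicate 2, 3 or 4, and 0 in the 12 libraries alone.

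Among identifiers with no symbol, ENSRNOG00000009436 rose by 2.77 ± 0.66 and ENSRNOG00000062308 by 1.23 ± 0.30, while ENSRNOG00000033891 fell by 2.49 ± 0.64 and ENSRNOG00000016812 by 2.15 ± 0.39. Their groups did not overlap. HI replicate 5 held the top value of the first, at 7.72 CPM with the next at 1.94 CPM, and without it the rise was 1.94.

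The cast rats differed in their distance from the CTRL mean. No rat was measured before the cast, so a rat's own starting level and its response cannot be told apart. Over the 249 falling DEGs the median log2 distance from the CTRL mean was -1.35 in HI replicates 1 and 4 and -1.29 in replicate 2, but -0.90 in replicate 5 and -0.86 in replicates 3 and 6. Over the 248 rising DEGs it ran from 0.57 in replicate 3 to 1.15 in replicate 4. Replicate 6 was the nearest to CTRL of the 6 in 83 falling genes and replicate 3 in 80, against 9 for replicate 1. Replicate 3 was also nearest in 91 rising genes. These values describe genes chosen on the same rats and carry no test. RNA integrity was 8.2 in replicates 1, 3 and 6, 8.0 in replicate 2 and 7.8 in replicates 4 and 5. Its part in the spread was not tested.

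Some single genes showed this order of the cast rats and others did not, and how many of the DEGs follow it was not counted. For Rrad, Rcan1, Gpx1 and Dnah5 replicates 1, 2 and 4 lay farther from CTRL than replicates 3, 5 and 6, and the same held for the rises of Hdac4, Ano1 and Sh3rf2. Dgat2, Arrdc2 and Fmo2 did not follow this order, since replicate 1 was the nearest to CTRL of the 6 in each.

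**Figure D4:**
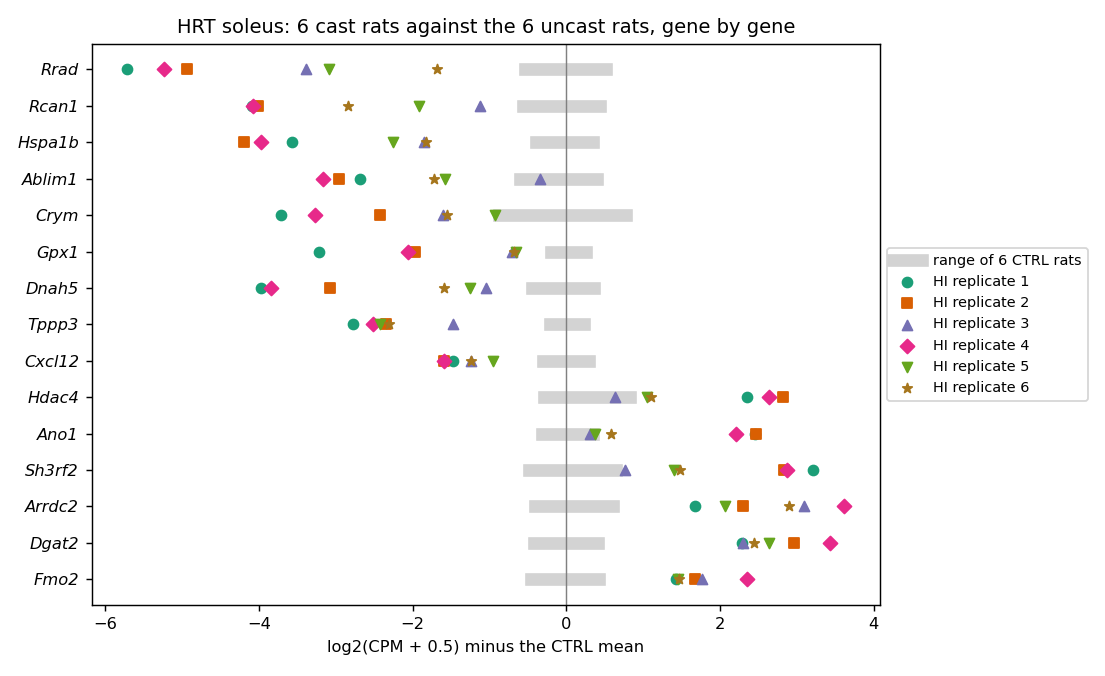
Each HI rat's log2(CPM + 0.5) minus the mean of the 6 CTRL rats for 15 genes, with the range of the CTRL rats as a grey bar and a symbol for each HI replicate. Replicates 1, 2 and 4 lie farthest from 0 for Rrad and Hdac4, while for Fmo2 the 6 rats lie together with replicate 4 ahead.

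The response of HRT soleus was set beside those of LRT soleus and HRT plantaris, each fitted against its own CTRL. In LRT soleus 2364 genes passed (13.9%) and in HRT plantaris 1859 (11.0%). Of the 248 genes that rose in HRT soleus, 231 had the same direction in LRT soleus and 114 of them passed there, with a median of 0.85 against 1.36 in HRT soleus. Of the 249 that fell, 240 had the same direction and 118 passed, with a median of -0.87 against -1.29. The genes were picked for their size in HRT soleus, so smaller medians elsewhere follow in part from the choice. In HRT plantaris 224 of the rises and 236 of the falls kept their direction, with 63 and 84 that passed and medians of 0.70 and -0.75.

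The difference between the lines was tested in itself as DELTA, the LRT response minus the HRT response. It passed for 5 genes (0.0295%), and at an unadjusted p under 0.05 for 1640. A single named gene was among them, LOC100362684, whose levels in HRT soleus were 22.8, 31.2 and 52.5 CPM in CTRL and 7.85, 12.9 and 25.9 CPM in HI. It fell by 1.20 ± 0.24 in HRT and rose by 0.68 in LRT (adjusted p = 0.0432), a DELTA of 1.89 ± 0.33 (adjusted p = 0.00793). The symbols next in order, Eid2 and Tenm4, did not pass (adjusted p = 0.149 for both). Tenm4, a teneurin of cell adhesion, fell from a median of 5.82 CPM to 2.86 CPM in HRT soleus (adjusted p = 4.66e-05) with groups apart, and its log2 fold change in LRT soleus was -0.17. The count of DELTA genes was 81 without HI replicate 6 and 0 in a fit of the soleus libraries alone, where 1278 genes had an unadjusted p under 0.05. With all libraries kept it was 31 in DESeq2, so it varies with the libraries and with the method.

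Between the muscles of HRT rats the response differed for 16 genes (0.0943%), of which 3 with a symbol were named. Hs3st1, a heparan sulfate sulfotransferase, had a log2 fold change of 0.24 ± 0.31 in soleus and -2.20 in plantaris, a difference of 2.44 ± 0.42 (adjusted p = 0.0143). Gabrr1 rose by 1.44 in soleus and fell by 1.62 in plantaris, a difference of 3.06 ± 0.60 (adjusted p = 0.0333). Glrx rose by 1.15 in soleus and stood at -0.26 in plantaris, a difference of 1.41 ± 0.30 (adjusted p = 0.0333). The identifier ENSRNOG00000062308 differed by 1.96 ± 0.43 (adjusted p = 0.0462). Both muscles were taken from the same rats, but the labels do not say whether a replicate number marks the same rat in each, and this fit treats the libraries as separate. The count was 150 in limma-voom with rat as a random block, taking equal numbers as the same rat. It was 1 without HI replicate 1 or without CTRL replicate 5.

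List counts differed between the muscles without a test of that difference. Over all genes 11.0% passed in HRT plantaris and 13.9% in LRT soleus. The share among genes with a symbol is given here for HRT soleus only, so list counts elsewhere lack a matching background. Proteolysis gave 18 rises of 24 in HRT plantaris against 3 in soleus, with Trim63 at 1.62 and Fbxo32 at 1.58 in plantaris, and oxidative metabolism gave 18 falls of 27 against 8. The chaperones gave 4 falls of 13 in plantaris against 10, with Hspa1b at -0.36 (adjusted p = 0.758). The actin and SRF list gave 1 fall of 17 against 10, with Myocd at -0.34. In LRT soleus the same lists gave 8 rises, 12 falls, 12 falls and 10 falls in that order. Clock genes in LRT soleus gave 4 rises and 2 falls, with Bhlhe41 at 0.58 (adjusted p = 0.25) and Nfil3 at -0.79 (adjusted p = 0.208). In HRT plantaris the clock list also gave 4 rises and 2 falls.

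**Figure D5:**
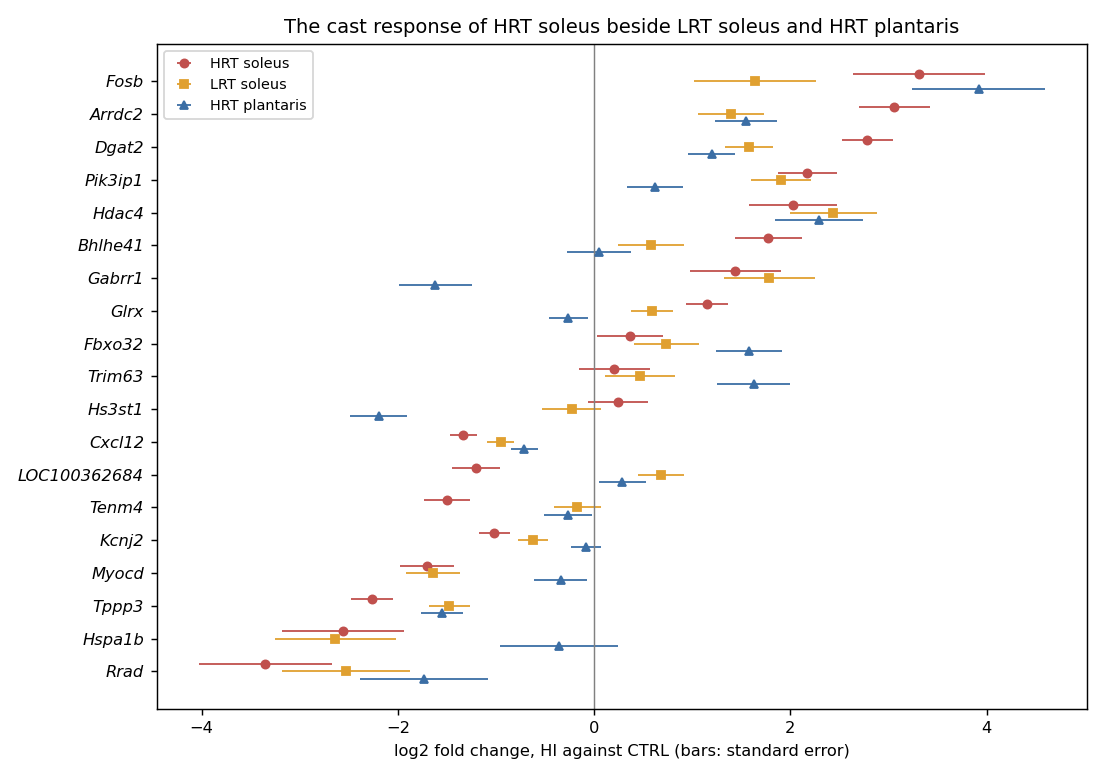
Log2 fold change of HI against CTRL with its standard error for 19 genes in HRT soleus (circles), LRT soleus (squares) and HRT plantaris (triangles), each from 6 HI and 6 CTRL rats. Gabrr1 lies at 1.44 in HRT soleus and at -1.62 in HRT plantaris, and LOC100362684 lies at -1.20 in HRT soleus and 0.68 in LRT soleus.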

How the data were processed

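Soleus RNA of 6 HRT HI and 6 HRT CTRL rats was analysed within the 48 libraries of the series. The authors deposited estimated counts per gene, made per the submitters' processing notes with Salmon 0.9.1 and Rnor_6.0 (rn6), and summed to genes with tximport per the study's methods. Of the deposited values 66.0% were not whole (tolerance 1e-06), and they were rounded. The labels and the methods name different library kits, so use of strand is unsettled, and overlapping or antisense genes cannot be told apart. Symbols come from the study's tables of responding genes, of which no fold change or p-value was used.

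Genes were kept with edgeR's filterByExpr, scaled by TMM and fitted with edgeR 4.0.16 (R 4.3.3) quasi-likelihood tests over 8 groups with the RNA integrity number as covariate, with Benjamini-Hochberg adjustment over all genes tested. All 48 libraries share the estimate of spread. Levels are CPM from TMM-scaled totals. Alternatives used DESeq2 1.42.0, limma 3.58.1, other scalings and filters, fewer libraries, a replicate block and each library left out. The text names the 10 largest rises and 10 largest falls among DEGs with symbols, mean CPM of at least 1 and no overlap, up to 4 members per list and direction with the smallest p, 1 or 2 that did not pass, Hdac4, Trim63 and Fbxo32, 3 genes per difference and 4 identifiers without symbol. Some genes that the rule names are not reported here. Members and lists were chosen with earlier results of these data known. In simulated counts of 16822 genes for HRT soleus, 200 genes were changed. There edgeR recovered 91.0% of changes of 1 and 96.0% of changes of 2 on the log2 scale, with 4.6% of its calls false. The counts were drawn independently, with the spread pooled over all 48 libraries and with no outlying library. These rates therefore need not hold for the real libraries. Replicates differed by far more than counting noise (chi-square per gene 21.0 to 212.8 over 30 pairs). P-values measure the spread between libraries within groups, pooled over both muscles and both lines. The muscles of a rat are treated as separate. Promoters (RefSeq, GRCr8) were matched by symbol.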

Additional observations from a re-analysis of the deposited data

Results flagged for a closer look

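Levels of the named genes in HRT soleus were checked for a library far from the other 5 of its group, by the gap to the nearest library relative to the range (Dixon's test). Of 252 groups checked 40 held such a library. For normally distributed values chance flags about 1 in 20 groups. The check was run on unlogged CPM, which need not be so distributed, so that rate is only a rough guide. CTRL replicate 1 stood apart most often, in 19 groups. It was highest for Colq (30.8 CPM, then 13.3 CPM), Ldb3 (1929 CPM, then 1134 CPM), Npas2 (19.1 CPM, then 13 CPM), Col5a3 (82.6 CPM, then 43.4 CPM), Eln (63.1 CPM, then 28.1 CPM), Adamts14 (8.19 CPM, then 3.7 CPM) and Bst2 (11.2 CPM, then 5.05 CPM). It was also highest for Hdac4 (30.8 CPM, then 16.9 CPM), Fam134b (62.4 CPM, then 27.1 CPM), Fbxo31 (34.7 CPM, then 23.3 CPM), Srebf1 (182 CPM, then 76.6 CPM), Mt3 (10.3 CPM, then 3.49 CPM) and Mogat2 (3.05 CPM, then 1.56 CPM), and for Cacna1g (10.8 CPM, then 6.07 CPM), Slc4a3 (207 CPM, then 122 CPM), Grm4 (26.3 CPM, then 9.2 CPM), Ache (20.8 CPM, then 11.2 CPM) and Tubg2 (0.779 CPM, then 0.527 CPM). It was lowest for Cycs (318 CPM, with the next at 686 CPM). HI replicate 5 was the highest of its group for Rsad2 (51.2 CPM, then 11.8 CPM), Ifit1bl (18.1 CPM, then 5.31 CPM), Alas2 (187 CPM, then 27.8 CPM), Hba-a1 (4117 CPM, then 660 CPM), Bpgm (92.7 CPM, then 51.1 CPM) and ENSRNOG00000009436 (7.72 CPM, then 1.94 CPM). HI replicate 4 was the highest of its group for Fosb (45.7 CPM, then 12.2 CPM), Trim63 (250 CPM, then 158 CPM), Fmo2 (50.7 CPM, then 33.7 CPM) and Fmo1 (19.1 CPM, then 15.1 CPM). HI replicate 3 was the highest of its group for Tppp3 (60.1 CPM, then 33.4 CPM), Ablim1 (414 CPM, then 176 CPM) and ENSRNOG00000016812 (0.609 CPM, then 0.359 CPM). HI replicate 6 was the highest of its group for Rrad (35.1 CPM, then 12.9 CPM) and Sigirr (1.85 CPM, then 0.896 CPM). CTRL replicate 6 was the highest of its group for Il18bp (7.96 CPM, then 6.08 CPM) and Eno3 (1342 CPM, then 996 CPM). HI replicate 2 was the highest of its group for Il18bp (25.2 CPM, then 12 CPM) and Irs1 (37.6 CPM, then 25.5 CPM). CTRL replicate 3 was the highest of its group for Alas2 (10.3 CPM, then 5.35 CPM) and Myod1 (2.82 CPM, then 2.03 CPM).

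The cast response also differed between groups for a few genes, by edgeR's test of the difference itself. On the log2 scale, the LRT response minus the HRT response in soleus was 1.89 ± 0.33 for LOC100362684 (adjusted p = 0.0079). On the log2 scale, the soleus response minus the plantaris response in HRT rats was 3.06 ± 0.60 for Gabrr1 (adjusted p = 0.033), 2.44 ± 0.42 for Hs3st1 (adjusted p = 0.014), 1.41 ± 0.30 for Glrx (adjusted p = 0.033) and 1.96 ± 0.43 for ENSRNOG00000062308 (adjusted p = 0.046).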

How the results depend on the processing

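None of the 105 named genes that passed changed direction under an alternative that was run, while Itga4, Eno3 and Eid2, which did not pass, changed sign near 0 under some. The split of genes that passed, 1348 higher and 1396 lower, turned to 1654 higher and 925 lower with library totals. The 497 DEGs became 272 when each library had to hold 10 counts, 293 in soleus libraries alone, 226 in the 12 libraries alone, 123 at an adjusted p under 0.001 and 1264 at 1.5-fold. With a library left out they ran from 340 (without HI replicate 1) to 657 (without HI replicate 6). The 2744 genes became 1207 in soleus libraries alone, and ran from 1376 to 3375 without the same libraries. The 5 DELTA genes became 3 with library totals, 31 with DESeq2, 9 without the RIN covariate, 11 under the same floor of 10 counts and 0 in soleus libraries alone, where 1278 had an unadjusted p under 0.05 in edgeR. They ran from 3 to 81, with 81 without HI replicate 6, 12 without CTRL replicate 4 and 8 without HI replicate 3. The 16 genes of the muscle difference became 78 with DESeq2, 64 without the RIN covariate, 1 with no filter and 150 in limma-voom with rat as a random block (correlation 0.230). They ran from 1 to 27, with 1 without HI replicate 1 or CTRL replicate 5, 4 without CTRL replicate 4, 6 without HI replicate 4, 9 without HI replicate 2 or 6, and 27 without HI replicate 3 or CTRL replicate 2. The cause of these shifts was not tested. Same-numbered HI and CTRL rats were not paired, since their deviations correlated at -0.14 to 0.04 and 0 of 6 numbers matched best with their own. A replicate block gave 510 DEGs, 3003 genes, 4 DELTA genes and 28 genes of the muscle difference. Of 126 named genes 105 passed, of which 94 passed in each fit without a library. In soleus libraries alone 92 of the 126 passed, and in the 12 libraries alone 74.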
